A study of Homo sapiens with 12 samples.

Results

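The heat shock proteins described here are 10 genes, HSPA1A, HSPA1B, HSPA8, HSP90AA1, HSPB1, DNAJB1, HSPH1, HSPD1, HSPE1 and BAG3, and their members on the array are all 17 probes that the platform annotation gives 1 of these symbols, of 47323 probes in all. The cells were A549, a widely used human line established from a lung carcinoma of the non-small cell type, harvested 24 h after they were transfected. Of the 4 plasmids, ICD encoded the part of the transmembrane semaphorin SEMA5A inside the cell, ECD the part outside it and Full the whole protein, and the control plasmid is labelled Empty. All 4 groups, the control included, went through transfection with the same reagent, and the labels name no untransfected or heated cells. Each group had 3 single-colour Illumina arrays, which the labels number as replicates. They do not say whether each was a transfection of its own, so p-values here cover array-to-array spread that may be technical only. That number of arrays limits the precision. The 2 probes for SEMA5A itself gave 0 values above background among 24, so neither the plasmid labels nor construct levels could be checked on these arrays.

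Heat shock proteins are molecular chaperones, which bind unfolded or partly folded proteins and help them fold, refold or reach degradation. In the cytosol HSP70 proteins take up clients that J-domain proteins deliver, nucleotide exchange factors release them again, and HSP90 acts on later folding steps. In the mitochondrial matrix HSPD1 and HSPE1 form the barrel and lid of a chaperonin. Heat and other proteotoxic stress raise most of these genes through the transcription factor HSF1, which binds heat shock elements, repeats of the letters GAA and their complement TTC. Cancer cells are known for high basal levels of many of them.

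The promoters are shown because the results below divide the genes by direction between Full and ECD. With Full, HSP90AA1, HSPH1 and the brightest HSPD1 probe stood lower, and DNAJB1 and HSPB1 higher. Of the near-identical pair HSPA1A and HSPA1B neither was called. HSPH1, whose window held no match, is not printed, and for genes with several windows 1 with a match is printed. Whether these letters go with a direction was not tested. The windows are from RefSeq (GRCh38.p14) and run from 250 bases before to 50 bases after an annotated start, 5′ to 3′ on the gene's strand. Capitals mark the pairs of heat shock units that were searched, GAANNTTC (head-to-head) and TTCNNGAA (tail-to-tail), each of which reads the same on both strands and may overlap the other.
HSPA1A, chr6:31815293-31815592, plus strand: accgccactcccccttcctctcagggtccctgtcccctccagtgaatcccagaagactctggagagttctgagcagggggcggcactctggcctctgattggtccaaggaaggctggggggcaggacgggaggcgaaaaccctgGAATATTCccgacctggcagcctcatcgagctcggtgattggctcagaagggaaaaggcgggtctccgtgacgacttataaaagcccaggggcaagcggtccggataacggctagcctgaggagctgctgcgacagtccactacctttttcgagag
HSPA1B, chr6:31827488-31827787, plus strand: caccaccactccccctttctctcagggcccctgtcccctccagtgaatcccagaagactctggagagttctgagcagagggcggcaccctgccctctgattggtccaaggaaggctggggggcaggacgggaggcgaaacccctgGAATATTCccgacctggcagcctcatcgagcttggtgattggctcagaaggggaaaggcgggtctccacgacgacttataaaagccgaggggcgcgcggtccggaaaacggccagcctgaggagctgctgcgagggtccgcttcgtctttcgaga
HSP90AA1, chr14:102086995-102087294, minus strand: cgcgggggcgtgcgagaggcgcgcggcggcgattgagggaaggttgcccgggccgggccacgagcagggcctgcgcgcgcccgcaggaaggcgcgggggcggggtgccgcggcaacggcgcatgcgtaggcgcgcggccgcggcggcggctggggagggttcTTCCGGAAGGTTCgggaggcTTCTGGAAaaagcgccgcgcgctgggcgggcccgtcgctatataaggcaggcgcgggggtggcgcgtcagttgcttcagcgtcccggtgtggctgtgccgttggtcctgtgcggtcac
HSPD1, chr2:197499791-197500090, minus strand: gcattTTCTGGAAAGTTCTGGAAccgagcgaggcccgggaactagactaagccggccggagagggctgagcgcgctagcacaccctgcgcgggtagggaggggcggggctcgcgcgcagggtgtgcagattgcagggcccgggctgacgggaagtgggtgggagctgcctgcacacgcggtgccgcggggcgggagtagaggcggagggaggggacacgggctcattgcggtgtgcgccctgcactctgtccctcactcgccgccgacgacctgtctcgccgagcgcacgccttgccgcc
DNAJB1, chr19:14518348-14518647, minus strand: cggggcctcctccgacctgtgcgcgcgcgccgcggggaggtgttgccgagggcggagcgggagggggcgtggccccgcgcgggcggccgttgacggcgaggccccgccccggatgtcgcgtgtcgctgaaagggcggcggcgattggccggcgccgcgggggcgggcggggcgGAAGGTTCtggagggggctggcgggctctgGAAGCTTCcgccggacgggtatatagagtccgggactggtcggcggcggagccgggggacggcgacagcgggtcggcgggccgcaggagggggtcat
HSPB1, chr7:76302423-76302722, plus strand: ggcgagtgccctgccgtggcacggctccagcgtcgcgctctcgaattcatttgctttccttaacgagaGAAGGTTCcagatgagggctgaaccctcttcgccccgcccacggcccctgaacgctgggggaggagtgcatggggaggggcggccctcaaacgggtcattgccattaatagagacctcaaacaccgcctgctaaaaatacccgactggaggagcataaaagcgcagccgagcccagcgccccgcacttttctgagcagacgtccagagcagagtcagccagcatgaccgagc
All 10 genes had a window, 14 in total, and 8 of the 14 held at least 1 of these pairs (57.1%), against 13.5% of all 35116 windows of the same length. In HSPA1A and HSPA1B the windows were identical at 277 of 301 aligned positions (92.0%), and the head-to-head pair began at -106 and -105 bases from the start. HSP90AA1 and HSPD1 held overlapping units, with HSP90AA1 at -88, -83 and -68 bases from the start and HSPD1 at -245, -240 and -235. HSPA8 held 2 pairs of each kind. DNAJB1 held head-to-head pairs at -77 and -47 bases in the window shown, and another just after the start in a second window. HSPB1 held 1 pair, at -182 bases. In the windows of HSPH1, HSPE1 and BAG3 neither string of letters occurred. The same held for a further window each of HSP90AA1, HSPD1 and DNAJB1, not printed. The HSPE1 window overlapped the second HSPD1 window by 204 bases on the opposite strand, and these genes are known to be transcribed away from each other from a shared region. The first HSPD1 window, which holds the HSPD1 pairs, ends at base 197500090, and the HSPE1 window begins at 197500129. Those pairs thus fall outside the HSPE1 window by its cut alone. The search describes these letters only and is no evidence of binding.

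**Figure D1:**
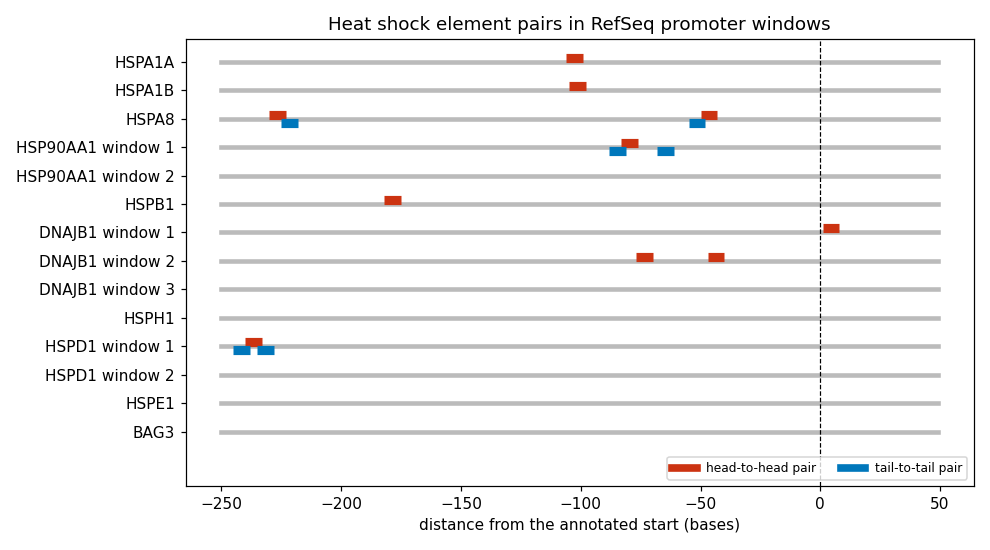
Positions of head-to-head (GAANNTTC) and tail-to-tail (TTCNNGAA) heat shock element pairs in the 14 RefSeq promoter windows of the 10 genes, against distance from the annotated start in bases; grey lines are the windows. Matches lie in 8 of the 14 windows, and those of HSPA1A and HSPA1B begin at -106 and -105 bases.

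Expression is given as normalized log2 intensity, that is, after background correction, quantile normalization between arrays and a log2 transform, so that 1 unit is a 2-fold step. Levels of different probes cannot be set against each other on this scale. Each array had 18659 to 20366 probes over background (detection p under 0.05), and 18728 probes, above background on all 3 arrays of at least 1 group, were tested in 1 limma fit with Benjamini-Hochberg adjustment over all of them at 0.05. Of the 17 heat shock probes 16 entered, which covered all 10 genes. The probe left out was the HSPD1 probe annotated to the transcript NM_199440, over background on 1 of 12 arrays. Of the 16, 15 were above background on all 12 arrays and the remaining HSPD1 probe on 11. Each gene is described by its brightest entering probe, called the first probe, with the others beside it. Of the epithelial markers KRT8 and KRT18 were above background on 12 of 12 arrays, EPCAM on 2, and KRT19 and CDH1 on 0. CD68 of the leukocyte list was also above background on all 12, PTPRC on 1, CD3E on 0, and the endothelial markers PECAM1, CDH5 and VWF on 0. Among the fibroblast markers, COL1A1 was above background on 4 arrays, COL1A2 on 2 and PDGFRB on 0. As in any bulk RNA, fewer cells that express a gene and less of its RNA per cell cannot be told apart here.

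Against the control plasmid few heat shock probes were called, and with ECD the number depended on the processing. With ICD 0 of 16 probes were called, against 6.51% of all probes tested. With ECD 1 of 16 was called (6.25%, against 11.3% of all probes), the second HSPA8 probe, and with Full 0 of 16 (against 1.07%). Without background correction, with a larger offset of 50 or with a trended and robust variance, 4 probes were called higher and 2 lower with ECD. This was 37.5% of the 16, against 15.8%, 15.5% and 14.7% of all probes. With median scaling or with replicate number as a block 0 were called with ECD, against 14.2% and 11.1% of all. Leaving out 1 array gave 0 higher and 0 to 1 lower with ECD, against 4.03% to 6.88% of all probes called. In the main fit 3 probes with ICD, 6 with ECD and 2 with Full had an unadjusted p under 0.05, against 24.2%, 28.1% and 14.8% of all probes. Groups did not overlap on 5 probes with ICD (31.9% of all probes), 8 with ECD (38.2%) and 3 with Full (18.5%). The median log2 difference of the 16 probes was -0.01 with ICD, 0.07 with ECD and -0.03 with Full, beside medians of 0.00, -0.01 and 0.00 over all probes tested. These 3 comparisons share the Empty arrays. The largest fold with ICD was 1.18, lower for HSPA1A and for the dimmest tested HSPD1 probe but higher for the first HSPD1 probe. It was 1.51 with ECD (HSPE1 by its second probe, lower) and 1.32 with Full (HSPD1 by its dimmest tested probe, higher). None of these was called.

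**Figure D2:**
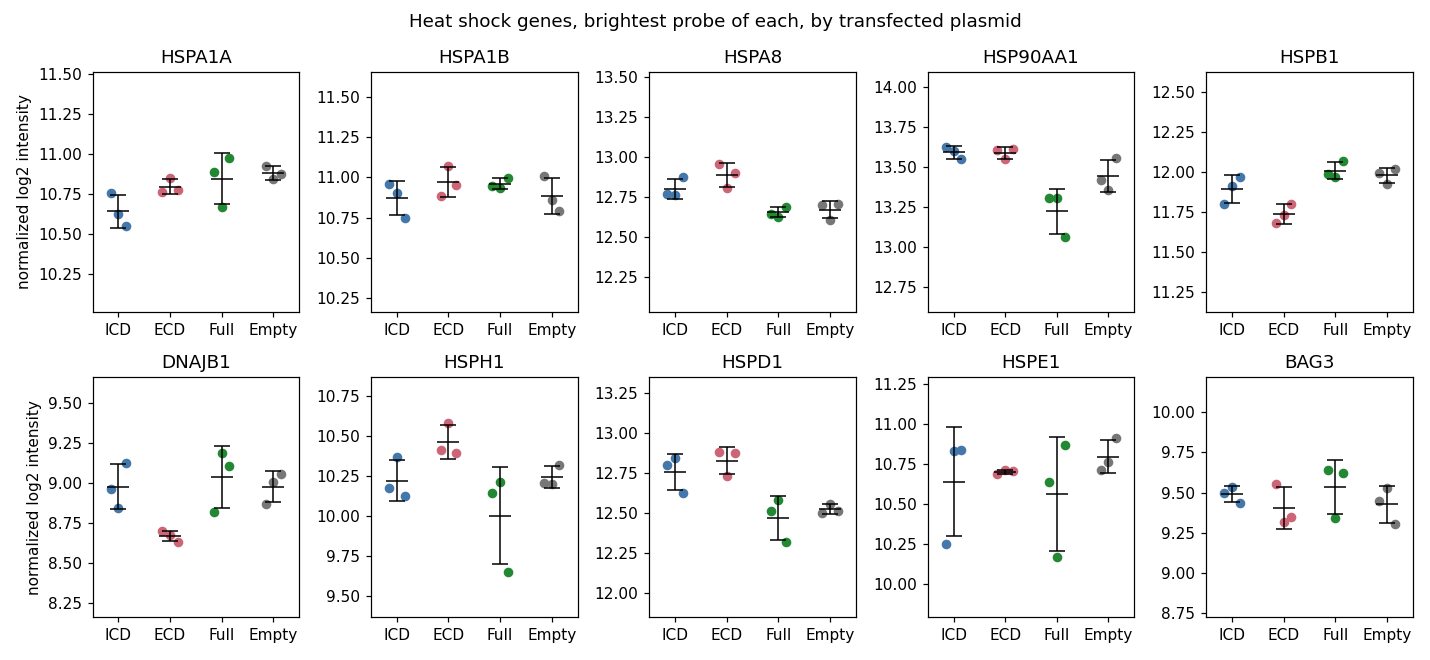
Normalized log2 intensity of the first probe of each heat shock gene on the 12 arrays, grouped by plasmid; points are arrays, bars the mean ± SD (n = 3), and every panel spans 1.5 log2 units. DNAJB1 and HSPB1 are lowest with ECD, while HSP90AA1 and HSPD1 are higher with ECD than with Full.

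HSPA1A and HSPA1B encode the stress-inducible HSP70 and are the textbook readout of HSF1 activity. The transcripts are nearly the same sequence, so their probes may read both. HSPA1A had 10.76, 10.63 and 10.55 on the ICD arrays, 10.77, 10.85 and 10.78 on the ECD arrays, 10.89, 10.67 and 10.98 on the Full arrays and 10.93, 10.84 and 10.88 on the Empty arrays. All ICD arrays lay below all Empty arrays, and the ECD and Full arrays overlapped Empty. Here and below ± is the SE of the limma fit, for means of 3 arrays a group. Its spread is pooled over all 4 groups and moderated across probes, so it is not that of the 2 groups compared. The ICD difference was -0.24 ± 0.10 (limma adjusted p = 0.16) and did not pass the test. Without background correction its adjusted p was 0.0498, the lowest of 0.0498 to 0.33 over its alternatives. HSPA1B had 10.96, 10.91 and 10.75 with ICD, 10.88, 11.07 and 10.95 with ECD, 10.95, 10.93 and 11.00 with Full and 11.01, 10.86 and 10.79 with Empty. All 4 groups overlapped. The 95% intervals of the HSPA1B differences from Empty were -0.22 to 0.19 with ICD, -0.12 to 0.29 with ECD and -0.13 to 0.28 with Full.

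HSPA8 encodes the constitutive cytosolic HSP70 (HSC70), which does most of this work in unstressed cells. Its second probe gave the 1 call against Empty. It had 12.70, 12.82 and 12.75 on the ECD arrays, against 12.42, 12.46 and 12.55 on the Empty arrays. The groups did not overlap, and HSPA8 was 1.21-fold higher with ECD (log2 0.28 ± 0.09, SE, n = 3; limma adjusted p = 0.0495). The same probe had 12.75, 12.66 and 12.71 with ICD and 12.59, 12.47 and 12.55 with Full, at differences from Empty of 0.23 ± 0.09 (limma adjusted p = 0.12) and 0.06 ± 0.09 (limma adjusted p = 0.79). The first HSPA8 probe had 12.96, 12.81 and 12.90 with ECD and 12.70, 12.61 and 12.70 with Empty, a difference of 0.22 ± 0.09 (limma adjusted p = 0.11), so both probes had ECD above Empty on all arrays. The call on the second probe ended without any 1 of the 6 arrays (limma adjusted p of 0.086 to 0.15).

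HSP90AA1 encodes the inducible cytosolic HSP90 alpha, the chaperone of many kinases and steroid receptors. Its first probe had 13.63, 13.60 and 13.55 with ICD, 13.61, 13.55 and 13.62 with ECD, 13.31, 13.31 and 13.06 with Full and 13.42, 13.36 and 13.56 with Empty. The Full arrays lay below all others, and Full replicate 3 was the lowest of them. This probe is among the brightest of the array, at intensities of 8999 to 12715 where the array maximum was 16362 to 18184, and compression at the bright end was not tested. The second probe had 12.37, 12.56 and 12.01 with Full, against 12.81, 12.95 and 12.91 with ECD and 12.63, 12.68 and 12.68 with ICD. From Empty, at 12.44, 12.58 and 12.59, ECD differed by 0.35 ± 0.12 (limma adjusted p = 0.068) and Full by -0.22 ± 0.12 (limma adjusted p = 0.40), neither called. The third HSP90AA1 probe, a dim one, at 6.13 to 6.58 on all arrays overlapped between all 4 groups.

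None of the 3 cofactors of HSP70 was called against Empty. DNAJB1, the main stress-inducible J-domain protein (HSP40), had 8.70, 8.67 and 8.63 on the ECD arrays. After quantile normalization these lay below every other array of the series. ICD arrays had 8.96, 8.84 and 9.12, Full arrays 8.82, 9.19 and 9.10 and Empty arrays 8.87, 9.00 and 9.05. The difference of ECD from Empty was -0.31 ± 0.11 (limma adjusted p = 0.084), and that of ECD from ICD also -0.31 ± 0.11 (limma adjusted p = 0.23), so neither passed. In the deposited DNAJB1 intensities the ECD arrays, at 540, 553 and 512, were not below all others. Full replicate 1 had 487 and ICD replicate 2 had 534. When arrays were scaled to a common median instead, ECD differed from Empty by -0.12 (limma adjusted p = 0.58), or -0.23 relative to the median of all probes. HSPH1 (HSP110), a nucleotide exchange factor for HSP70, had 10.41, 10.58 and 10.39 with ECD, above 10.21, 10.20 and 10.32 with Empty on all arrays, at a difference of 0.22 ± 0.13 (limma adjusted p = 0.30). With Full it had 10.14, 10.21 and 9.65, where replicate 3 stood apart below the other two. BAG3, another exchange factor and a link to autophagy, lay between 9.30 and 9.64 on all 12 arrays. Its groups overlapped in every comparison, with differences from Empty of 0.06 ± 0.11 for ICD, -0.02 ± 0.11 for ECD and 0.11 ± 0.11 for Full.

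The mitochondrial chaperonin genes gave the least even picture, because their probes differ. The first HSPD1 probe had 12.80, 12.84 and 12.63 with ICD, 12.88, 12.73 and 12.87 with ECD, 12.51, 12.58 and 12.32 with Full and 12.50, 12.56 and 12.51 with Empty. All ICD and all ECD arrays lay above all Empty arrays, at differences of 0.23 ± 0.10 (limma adjusted p = 0.16) and 0.30 ± 0.10 (limma adjusted p = 0.060). A second HSPD1 probe differed by 0.18 ± 0.12 with ICD and 0.09 ± 0.12 with ECD, and the third, close to background at 4.64 to 5.68, by -0.24 ± 0.14 and -0.07 ± 0.14. Over the 12 arrays the third probe correlated with the first at r = -0.41 and with the second at r = -0.66. HSPE1, the lid of the same chaperonin, had a first probe at 10.69, 10.71 and 10.70 with ECD and 10.71, 10.76 and 10.91 with Empty, a difference of -0.09 ± 0.17 (limma adjusted p = 0.76). The same probe had 10.25, 10.83 and 10.84 with ICD and 10.64, 10.17 and 10.87 with Full, so both groups held 1 array well below the rest. Its second probe had 10.71, 10.03 and 8.85 on the ECD arrays, against 10.43, 10.45 and 10.49 on the Empty arrays. The SD of these ECD arrays was 0.94, and the difference was -0.60 ± 0.32 (limma adjusted p = 0.25). That SE pools the spread of all groups, so it does not reflect the ECD spread alone. The 2 HSPE1 probes correlated at r = -0.20. HSPD1, HSPE1, HSPA8 and HSP90AA1 are known for processed pseudogene copies, which probes may not tell apart.

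HSPB1 (HSP27) is a small heat shock protein that holds unfolding proteins without using ATP and binds actin. It had 11.68, 11.73 and 11.80 on the ECD arrays, against 11.99, 11.93 and 12.02 on the Empty arrays, with no overlap. This difference was -0.24 ± 0.09 (limma adjusted p = 0.086). ICD arrays had 11.80, 11.91 and 11.97 and Full arrays 11.99, 11.97 and 12.07. Its difference from Empty was -0.08 ± 0.09 with ICD and 0.03 ± 0.09 with Full.

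More heat shock probes were called between the full-length protein and the extracellular domain alone than in the other comparisons, and this comparison shares its arrays with those above. Of 16 probes 3 were higher and 4 lower with Full than with ECD, 7 in all (43.8%). Over all probes tested 17.8% were called, 7.75% higher and 10.0% lower. This count rested on the processing and on single arrays. It was 2 of 16 (12.5%, against 11.7% of all) when only the Full and ECD arrays were fitted and 3 of 16 (18.8%, against 20.2%) with median scaling, so in both the members' share was close to that of all probes. Without ECD replicate 3 it was 1 (6.25%, against 10.2% of all), without Full replicate 3 it was 2 (12.5%, against 9.18%), and without ECD replicate 1 or 2 it was 3 (18.8%, against 10.0% and 9.15%). Without Full replicate 1 or 2 it was 5 (31.2%, against 11.7% and 23.2%). Other choices gave a larger share: 8 of 16 (50%, against 21%) without background correction and 9 of 16 (56.2%, against 21.4%) with offset 50. At 1 probe a gene it was 5 of 10 (50%, against 18.3%), and with no filter on dim probes 4 of 16 (25%, against 5.24%). At an unadjusted p under 0.05 there were 10 of 16, against 33.3% of all. The groups did not overlap on 9 of the 16, against 34.9% of all probes. The leukocyte-list gene CD68, which these cells also express, was 0.28 lower with Full than with ECD and 0.35 higher with ECD than with Empty (limma adjusted p = 0.0497 and 0.027), and its part in these results was not tested. HSP90AA1, HSPH1 and HSPD1 were lower with Full, and HSPB1 and DNAJB1 higher. The second HSP90AA1 probe stood 1.49-fold lower, by -0.58 ± 0.12 on the log2 scale (limma adjusted p = 0.0065, errors are SE of the limma fit). The first stood 1.29-fold lower (-0.37 ± 0.10, limma adjusted p = 0.019). HSPH1 was 1.37-fold lower (-0.46 ± 0.13, limma adjusted p = 0.028) and the first HSPD1 probe 1.28-fold lower (-0.36 ± 0.10, limma adjusted p = 0.023). On all 4 of these probes each Full array was below each ECD array. DNAJB1 was 1.29-fold higher (0.37 ± 0.11, limma adjusted p = 0.034) and HSPB1 1.21-fold higher (0.27 ± 0.09, limma adjusted p = 0.045), with each Full array above each ECD array. The third HSPD1 probe went the other way from the first, at 0.46 ± 0.14 higher with Full (limma adjusted p = 0.036), so the direction for HSPD1 rests on the brighter probes. The second HSPD1 probe differed by -0.27 ± 0.12 (limma adjusted p = 0.14). The third HSP90AA1 probe, a dim one annotated to the same transcript as the second, differed by -0.12 without a call. Both HSPA8 probes had each Full array below each ECD array without a call (-0.23 ± 0.09 and -0.22 ± 0.09, limma adjusted p = 0.074 and 0.090). HSPE1 differed by -0.14 ± 0.17 by its first probe (limma adjusted p = 0.60) and by 0.67 ± 0.32 by its second (limma adjusted p = 0.17), and BAG3 by 0.13 ± 0.11 (limma adjusted p = 0.44). HSPA1A and HSPA1B differed by 0.05 ± 0.10 and -0.01 ± 0.10, with 95% intervals of -0.16 to 0.26 and -0.22 to 0.20.

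Among these calls only the second HSP90AA1 probe was called under all 15 alternatives tried on it, with a log2 difference of -0.70 to -0.43. When arrays were scaled to a common median instead, the median of all probes was -0.10 for Full against ECD, and the share of calls that were higher was 7.58%, against 43.6% in the quantile-normalized data. HSP90AA1 by its second probe (-0.50, limma adjusted p = 0.0099), HSPH1 (-0.56, limma adjusted p = 0.0094) and HSPB1 (0.32, limma adjusted p = 0.042) were still called there. DNAJB1 was then 0.18 higher (limma adjusted p = 0.39), or 0.28 relative to the median of all probes. Full replicate 3 was the lowest Full array for HSP90AA1, HSPH1 and the first HSPD1 probe. Without it the second HSP90AA1 probe differed by -0.43 and was still called, while HSPH1 differed by -0.28 (limma adjusted p = 0.11), HSPD1 by -0.28 (limma adjusted p = 0.090) and the first HSP90AA1 probe by -0.28 (limma adjusted p = 0.077). HSPH1 was called in 2 of the 6 fits without 1 array, DNAJB1 and HSPB1 in 1 each.

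**Figure D3:**
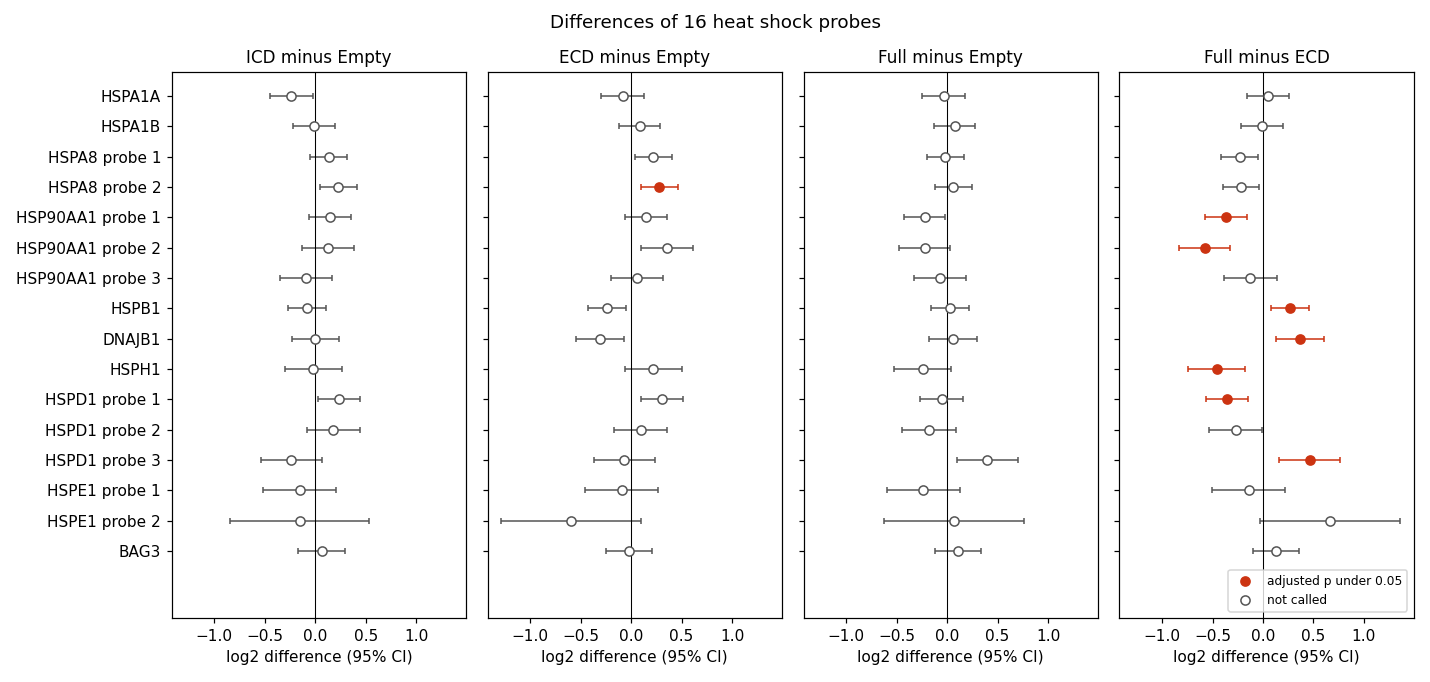
Log2 differences with 95% confidence intervals for the 16 tested heat shock probes in the 3 comparisons with Empty and in Full minus ECD; red points have a limma adjusted p under 0.05 and probes of a gene are numbered by brightness. In the comparisons with Empty 1 point is red, and in Full minus ECD 7 are, on both sides of 0.

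Full and ICD differed on 2 of 16 probes (12.5%, against 4.68% of all probes tested, 1.98% higher and 2.70% lower), and 5 had an unadjusted p under 0.05 (24.5% of all). Groups did not overlap on 7 of the 16, against 25.3% of all. With Full, HSP90AA1 by its first probe was at 1.29-fold less than with ICD (log2 -0.37 ± 0.10; limma adjusted p = 0.043), and the second, at -0.35 ± 0.12, had each Full array below each ICD array without a call (limma adjusted p = 0.094). The other call was the dimmest tested HSPD1 probe, 0.64 ± 0.14 higher with Full (limma adjusted p = 0.025), above background on 2 of 3 ICD arrays, while the first and second HSPD1 probes differed by -0.29 ± 0.10 and -0.36 ± 0.12 (limma adjusted p = 0.095 and 0.098). Between ECD and ICD 0 of 16 probes were called (limma), against 1.66% of all (1.13% higher, 0.529% lower), with 1 at an unadjusted p under 0.05, DNAJB1 (13.5% of all). Groups did not overlap on 4 of the 16, against 22.1% of all. By median scaling the Full against ICD calls were 0, and the HSP90AA1 call held in 1 of 6 fits without 1 array.

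Across the 12 arrays the genes fell into blocks that ran against each other. HSP90AA1 correlated with HSPD1 at r = 0.85, with HSPH1 at 0.78 and with HSPA8 at 0.68, and HSPH1 with HSPD1 at 0.73. DNAJB1 and HSPB1 correlated with each other at 0.73 and with HSPD1 at -0.63 and -0.85. HSPA1A and HSPA1B correlated at 0.50. HSPE1 correlated at -0.28 to 0.23 with the other genes and BAG3 at -0.56 to 0.20. These values describe 12 arrays in 4 groups that were scaled together, and they carry no test.

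**Figure D4:**
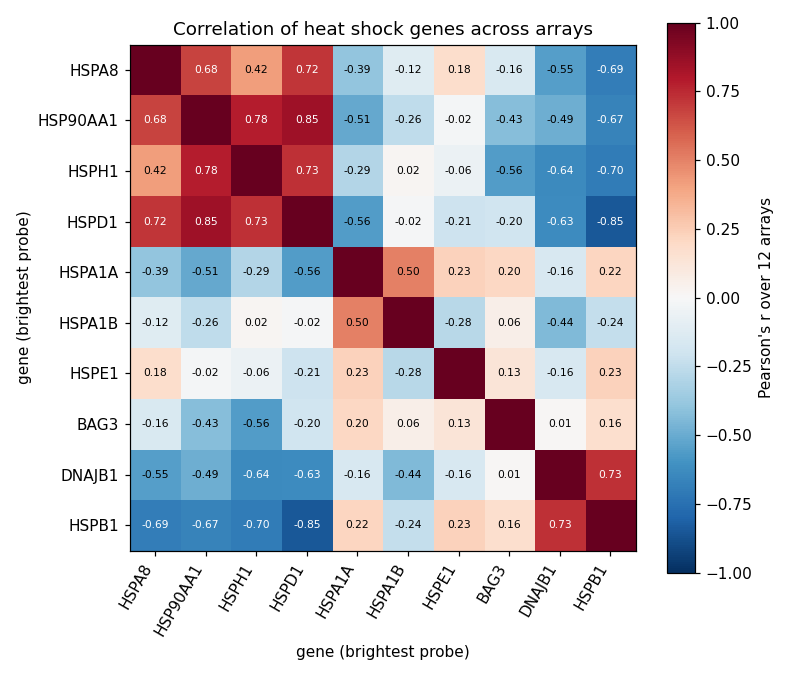
Pearson correlation of the first probes of the 10 heat shock genes over the 12 arrays, from blue (-1) to red (1). HSPA8, HSP90AA1, HSPH1 and HSPD1 form a positive block (0.42 to 0.85), and HSPB1 runs against it (-0.85 to -0.67).

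Among 10902 other genes, those with the pattern most like DNAJB1 over the 12 arrays were C1QL1 (r = 0.94), ISOC2 (0.92), FAM234A (0.91), PTMS (0.90) and TACC2 (0.90). For HSPA1A they were the histone gene H2AC18 (0.95), ATP8B2 (0.88), DYNLL2 (0.87), NCBP2AS2 (0.86) and ALAD (0.85).

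The wider chaperone network was read through 84 further genes in 7 lists, of which 82 were on the array and 69 were tested. With ICD 3 of the 69 were higher and 2 lower, with ECD 9 and 2, and with Full 0 and 1. Median log2 differences of the 69 were 0.05, 0.12 and -0.01. Over all probes tested, 3.19% of all probes were called higher and 3.32% lower with ICD, 5.77% and 5.55% with ECD, and 0.769% and 0.304% with Full. With median scaling, an alternative added for these lists after the data were seen, the counts were 1 higher and 2 lower with ICD, 12 and 0 with ECD, and 0 and 0 with Full. In the ECD comparison that scaling put the median of all probes at 0.11 and 92.1% of all calls on the higher side, against 51.0% in the quantile-normalized data. Relative to it the median of the 69 was 0.14. HSF1, the factor that drives the heat shock genes, stood 1.49-fold lower with ICD, by -0.57 ± 0.12 on the log2 scale (limma adjusted p = 0.013). It had 5.88, 5.56 and 5.94 on the ICD arrays, against 6.26, 6.39 and 6.45 on the Empty arrays. Only 1 probe read HSF1, a dim one above background on 12 of 12 arrays. Its value under the alternatives is not given here. The HSF1 differences with ECD and Full were -0.31 ± 0.12 and -0.19 ± 0.12 (limma adjusted p = 0.11 and 0.49). HSF1 is controlled largely at the protein level, which these arrays do not measure.

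The 9 genes higher with ECD were 4 J-domain proteins, 2 HSP70 family members, 2 cochaperones and 1 TRiC subunit. CCT2, a subunit of the cytosolic chaperonin TRiC, was 0.50 ± 0.09 higher on the log2 scale than with Empty (limma adjusted p = 0.0046). The cytosolic J-domain protein DNAJA1 was 0.38 ± 0.08 higher (limma adjusted p = 0.010), and GRPEL1 and GRPEL2, exchange factors of the mitochondrial HSP70, were 0.42 ± 0.10 and 0.45 ± 0.11 higher (limma adjusted p = 0.014 and 0.016). DNAJB14, a J-domain protein of the endoplasmic reticulum membrane, was 0.56 ± 0.11 higher by its brightest probe (limma adjusted p = 0.0050), with 0.37 and -0.16 by the other two. PFDN6, a subunit of prefoldin, was 0.47 lower with both ECD and ICD (limma adjusted p = 0.012 and 0.018). With ICD the called genes also included DNAJB14 at 0.43 ± 0.11, the J-domain protein DNAJA2 at 0.36 ± 0.09 and the TRiC subunit TCP1 at 0.37 ± 0.10 (limma adjusted p = 0.029, 0.032 and 0.040). The other TCP1 probes had -0.36 and 0.52 (limma adjusted p = 0.057 and 0.052), so they differed in sign. With Full the 1 called gene was DNAJC21, a J-domain protein of ribosome assembly, 0.63 ± 0.12 lower (limma adjusted p = 0.019). Its probe had 5.04, 5.45 and 5.08 on the Full arrays and 5.78, 5.85 and 5.83 on the Empty arrays. These Full values lie in the range of the HSPD1 probe described as close to background.

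Between Full and ECD 3 of the 69 chaperone genes were higher and 16 lower, with a median of -0.14 beside 0.02 over all probes, of which 7.75% were called higher and 10.0% lower. With median scaling 1 was higher and 22 lower, where 7.58% of all calls were higher, and the median of the 69 was -0.16 relative to that of all probes. Among those lower, named after their values were seen, were HSPA9, the mitochondrial HSP70 (-0.46 ± 0.09, limma adjusted p = 0.0051), and HSPA4, a relative of HSPH1 (-0.60 ± 0.12, limma adjusted p = 0.0063). The HSPA4 value is from the brighter of its 2 tested probes, and the other is not described here. In TRiC and prefoldin 4 of 14 were lower and 1 higher, and in the J-domain list 6 of 21 were lower and 0 higher. The HSP70 and HSP90 cochaperones had 2 of 19 lower and 2 higher. Other HSP70 and HSP110 genes had 3 of 9 lower and 0 higher, and other HSP90 genes 1 of 3 lower and 0 higher. Of HSF and its regulators (2 tested) and the other small heat shock proteins (1 tested) 0 were called. These counts are to be read against the same 10.0% and 7.75% of all probes.

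**Figure D5:**
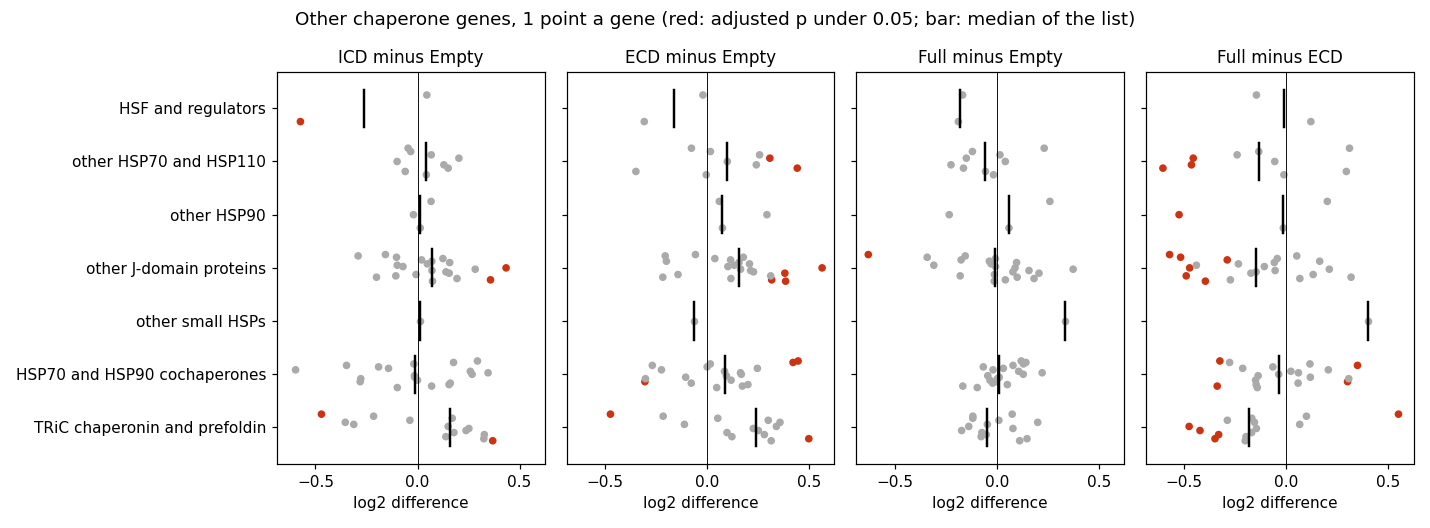
Log2 differences of the 69 tested chaperone genes outside the 10 described, 1 point a gene, by list and comparison; red points have a limma adjusted p under 0.05 and black bars are list medians. Red points with ECD minus Empty lie mostly to the right of 0 and those with Full minus ECD mostly to the left.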

How the data were processed

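Biotin-labelled, amplified RNA from A549 cells was hybridized to single-colour arrays, per the labels' protocols. The deposited table holds a linear intensity per probe and array, background not subtracted, with a detection p-value against negative controls. The authors also deposited log2 values, which equal quantile-normalized log2 intensity within 5e-09. Sample titles gave the groups and the replicate numbers.

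Probes were named from the platform annotation, 30113 with 1 symbol, 8 with several and 17202 with none; 30074 matched the RefSeq table (GRCh38.p14) by Entrez identifier, which changed 0 symbols. Intensities were processed in R 4.3.3 with limma 3.58.1, whose neqc function fits normexp with the help of detection p-values, adds an offset of 16, quantile-normalizes and takes log2. Background and offset shrink differences of dim probes. All entering probes, rather than 1 probe a gene, were fitted over the 12 arrays (residual degrees of freedom 8, prior 6.79, and a median SD of 0.148), with contrasts of group means, eBayes and two-sided p-values. The fit was tested on simulated log2 values, and the background correction, normalization and detection filter before it were not. Intervals are 95% from the same fit. Alternatives left out each array in turn or changed 1 step: correction of background, offset, scaling, filter on detection, 1 probe a gene, variance trend, weights on arrays, groups in the fit or a replicate block.

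The members and gene lists were chosen with earlier results of these data known. Named were all members, HSF1, up to 6 called chaperone genes with the smallest adjusted p in each comparison with Empty, and the 5 genes most correlated with DNAJB1 and with HSPA1A; exceptions are stated. Array pairs held 0 identical columns. Promoters were aligned with Biopython 1.88, and figures drawn with matplotlib 3.10.9 under Python 3.11.15.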

Additional observations from a re-analysis of the deposited data

How the results depend on the processing

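Counts of called heat shock probes were small and moved with most choices. Values were recomputed for the first probe of each gene, and for other probes only in comparisons where they were called. Of these 1020 values 0 changed sign where either value was called, and 46 of 837 uncalled ones did. The fits share most of their arrays, so a called value could hardly change sign, and the 0 is no support for a direction. Of 156 recomputations of called values 96 were still called, and 27 uncalled values became called. Percentages below are the share of member probes called either way, against that of all probes in the same setting. Without background correction, which equals the authors' values, ICD against Empty had 1 higher and 1 lower (12.5%, against 11%). ECD against Empty had 4 higher and 2 lower (37.5%, against 15.8%), and Full against ICD 1 higher and 4 lower (31.2%, against 9.66%). With offset 50 ICD against Empty had 1 higher (6.25%, against 10.3%). There ECD against Empty had 4 higher and 2 lower (37.5%, against 15.5%), and Full against ICD 1 higher and 4 lower (31.2%, against 9.02%). In the trend and robust variance model ICD against Empty had 2 higher (12.5%, against 9.87%). In that model ECD against Empty had 4 higher and 2 lower (37.5%, against 14.7%), and Full against ICD 1 higher and 4 lower (31.2%, against 8.67%). ECD against Empty had 3 higher and 2 lower with array weights (31.2%, against 20.8%). Fitting only its 2 groups gave 3 higher and 1 lower (25%, against 19.2%), and detection p under 0.01 gave 2 higher (12.5%, against 16%). For this comparison median scaling and 1 probe per gene gave 0 (against 14.2% and 11.4%). The second HSPA8 probe, called in the main fit, is not in the fit at 1 probe per gene, so it could not be called there. Full against ECD had 1 higher and 2 lower with median scaling (18.8%, against 20.2%). It had 1 higher and 1 lower with only the 2 groups (12.5%, against 11.7%), and 1 higher and 3 lower with no filter on dim probes (25%, against 5.24%). Without background correction it had 2 higher and 6 lower (50%, against 21%). Offset 50 and the trend and robust model each gave 3 higher and 6 lower (56.2%, against 21.4% and 21%), and array weights 2 higher and 5 lower (43.8%, against 25.5%). Full against ICD had 0 higher and 0 lower with median scaling and with only the 2 groups (against 1.6% and 0.219%). With 1 probe per gene, a fit that leaves out the dim HSPD1 probe, it had 0 higher and 1 lower (10%, against 5%). With replicate number as a block, ECD against Empty had 0 higher (HSPA8, limma adjusted p = 0.064), against 11.1% of all probes called. In the same fit Full against ICD had 1 higher and 0 lower (6.25%, against 4.09%), with HSP90AA1 at a limma adjusted p of 0.058. No other count moved with the block. Deviations of same-numbered arrays correlated at -0.09 to 0.11 over 18 pairs and others at -0.14 to 0.10, so the numbers were not taken as pairs. Leaving out 1 array gave 0 higher and 0 to 1 lower for ECD against Empty, 0 to 1 higher and 1 to 4 lower for Full against ECD, and 0 to 1 higher and 0 to 2 lower for Full against ICD. In these fits 4.03% to 6.88%, 9.15% to 23.2% and 1.01% to 9.87% of all probes were called. Chaperone list genes under median scaling, added after the data were seen, numbered 1 higher for ICD against Empty, 0 lower for ECD against Empty, 0 lower for Full against Empty, 1 higher for ECD against ICD, 1 higher for Full against ECD, and 1 higher and 0 lower for Full against ICD. The cause of these changes was not tested. Precision is limited by 3 arrays a group and, for the dim HSPD1 and HSP90AA1 probes, by signal close to background. The probes of HSF1 and DNAJC21 were dim too.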

Other observations

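Several heat shock and other chaperone genes could not be read on these arrays. Of 82 chaperone genes on the array 13 had no probe that entered, and 5 of these were above background on 0 of 12 arrays. The 5 were the small heat shock proteins HSPB7, HSPB8, HSPB9 and CRYAB and the J-domain protein DNAJA4. HSPA6, an HSP70 known for strict induction by heat in human cells, reached background on at most 3 of 12 arrays with either of its 2 probes. No array of the series was therefore above background for CRYAB or HSPB8, whichever plasmid the cells received.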
